A study of Mus musculus with 2 samples.

Results

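The platelet-derived growth factor (PDGF) system was described in iWAT, the inguinal white fat depot under the skin of the mouse, through its 6 genes, the 4 ligands Pdgfa, Pdgfb, Pdgfc and Pdgfd and the 2 receptors Pdgfra and Pdgfrb. The genes were taken by name, and 6 of 6 had a row among the 31053 genes of the matrices. Single-nucleus RNA sequencing (snRNA-seq) counted transcripts by unique molecular identifiers (UMIs), tags that let each captured molecule be counted 1 time. There was 1 library labelled Lexis WT and 1 library labelled Lexis KO, each from iWAT of 3 male C57BL/6 mice on a Western diet, pooled by group after the lymph node had been taken out. Both groups carried the floxed allele (Lexis fl/fl). The KO group also carried Adipoq-cre, a transgene that drives the recombinase in adipocytes, so the long noncoding RNA Lexis was meant to be lost from adipocytes and not from the other cells studied here. The age of the mice was not given in the labels.

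PDGF ligands are secreted dimers that bring together pairs of receptor chains and switch on their tyrosine kinases. Pdgfa and Pdgfb encode chains that are secreted in active form, whereas the products of Pdgfc and Pdgfd carry a CUB domain that a protease has to remove first. PDGFRα marks fibroblasts and adipocyte progenitors in fat, and PDGFRβ marks pericytes and vascular smooth muscle cells, the mural cells that endothelial PDGF-B attracts to growing vessels.

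The sequences upstream of Pdgfc and Pdgfd are shown because these 2 ligands had the largest differences between the libraries. They are the + strand of GRCm38.p6 from RefSeq and end at the base before each gene's annotated start, with TATAAA in capitals where it occurs. The Pdgfc sequence is chr3:81036166-81036415 and has a GC content of 50.8%. The Pdgfd sequence is chr9:6168236-6168362 and has a GC content of 51.2%.
Pdgfc: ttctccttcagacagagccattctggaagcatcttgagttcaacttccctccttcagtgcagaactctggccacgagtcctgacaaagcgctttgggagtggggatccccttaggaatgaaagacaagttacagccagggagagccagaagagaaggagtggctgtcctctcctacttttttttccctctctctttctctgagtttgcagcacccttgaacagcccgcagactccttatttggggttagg
Pdgfd: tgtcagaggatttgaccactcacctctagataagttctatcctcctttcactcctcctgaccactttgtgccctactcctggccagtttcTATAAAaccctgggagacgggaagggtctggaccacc

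Both strands were searched for 4 short motifs. They were the TATA box core TATAAA, the GC box GGGCGG, the CCAAT box and the TCF motif CTTTGAT. None overlapped another in these windows. The Pdgfd window held 1 TATAAA, whose first base lies 37 bases before the gene, and none of the other motifs. The Pdgfc window held none of the 4. Among 32851 mouse promoters, windows of the Pdgfd length held the TATA box core in 6.68%, the GC box in 27.1%, the CCAAT box in 22.1% and the TCF motif in 1.53%. These windows were the end of each promoter stretch, while the Pdgfd window was the start of its own stretch, cut at the annotated gene start. The lengths therefore match but the positions do not. In windows of the Pdgfc length the shares were 12.4%, 32.7%, 33.8% and 3.21% in the same order.

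Each library was deposited with 5000 barcodes. The filters left 3503 nuclei labelled WT (median 1194 UMIs) and 2852 labelled KO (median 3876.5 UMIs). The names of the deposited files gave the opposite genotype to the labels for both libraries, and Lexis itself was not analysed here. Every direction below therefore rests on unchecked labels, and the libraries are called WT-labelled and KO-labelled. The 17 clusters, made without the 6 PDGF genes, included 14 in which 1 library supplied 90% of the nuclei or more. Lymphocyte-like nuclei made up 59.8% of the WT-labelled library and 2.66% of the KO-labelled library, and 150 lymphoid stroma-like nuclei (Ccl21a, Ccl19, Cxcl13) came from the WT-labelled library alone, although the lymph node had been removed. The 14 ASPC markers summed to 38358 and 39617 CPM in ASPC-like nuclei of the libraries labelled WT and KO and to at most 6397 CPM in any other class, with 0 of 14 missing in either ASPC-like class. The 12 mural markers summed to 5617 and 7421 CPM in mural-like nuclei, where 2 of them were at 0 in the WT-labelled library. Of the barcode sequences, 10 were present among the kept nuclei of both libraries. With 1 library per genotype there were no replicates and no test was possible. All intervals given are at 95% and cover counting error alone, and a class or library is said to differ only where such an interval leaves out a ratio of 1.

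Pdgfra, the receptor for which ASPC (adipogenic stem and precursor cells, here including fibroblasts) are known, was highest in ASPC-like nuclei in both libraries. The gene lies at chr5:75151322-75198206 of the mm10 (GRCm38) build. The level was 715 CPM (UMIs of the gene per 1000000 UMIs of the class, interval 655 to 779.5) over 294 nuclei in the WT-labelled library and 604 CPM (577 to 631) over 787 nuclei in the KO-labelled library. The next class was the lymphoid stroma-like nuclei of the WT-labelled library, at 443 CPM (368 to 528), against which the ASPC level was 1.62 times higher (1.33 to 1.98). The next class in the KO-labelled library was the mural-like nuclei at 59.1 CPM, which ASPC-like nuclei exceeded by 10.2 times (5.17 to 23.7).

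Low levels of Pdgfra were recorded in classes outside the stroma. Lymphocyte-like nuclei, in which little Pdgfra is known, had 23.0 CPM in the WT-labelled library (59 UMIs) and 12.2 CPM in the KO-labelled library (2 UMIs), and were used as a reference level. Most of these nuclei lay in different clusters in the 2 libraries. RNA free in the droplets was not measured, and its part was not tested. Adipocyte-like nuclei had 33.2 CPM in the WT-labelled library, which did not differ from the lymphocyte-like level (ratio 1.44, interval 0.999 to 2.08), and 3.24 CPM in the KO-labelled library. The first value pooled subclusters at 3.87 and 65.0 CPM, which are described with the other subclusters. Myeloid-like nuclei of the WT-labelled library, at 47.6 CPM, were 2.06 times above lymphocyte-like nuclei (1.36 to 3.11), with 18 of their 43 UMIs in 3 nuclei.

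Pdgfrb, the receptor of mural cells, was highest in mural-like nuclei in both libraries. The gene lies at chr18:61045127-61085067. The WT-labelled library held only 9 mural-like nuclei with 44 Pdgfrb UMIs, or 3432 CPM (2494 to 4608), and 27 of these UMIs came from 3 nuclei. The KO-labelled library held 43 mural-like nuclei with 128 UMIs, or 946 CPM (789 to 1125). Mural-like nuclei exceeded the next class by 8.74 times in the WT-labelled library (6.02 to 12.5, against lymphoid stroma-like nuclei) and by 6.21 times in the KO-labelled library (5.08 to 7.56, against ASPC-like nuclei). With 30 principal components in place of 20, the mural-like level in the WT-labelled library was 667 CPM, below its level in the KO-labelled library.

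ASPC-like nuclei were the other main site of Pdgfrb, at 316 CPM (276 to 359) in the WT-labelled library and 152 CPM (139 to 166) in the KO-labelled library. Lymphoid stroma-like nuclei, at 393 CPM (323 to 473), did not differ from ASPC-like nuclei of the same library (ratio 1.24, interval 0.982 to 1.57). Lymphocyte-like nuclei had 8.59 CPM in the WT-labelled library and 0 of 163996 UMIs in the KO-labelled library, which allows up to 18.3 CPM. Adipocyte-like nuclei of the KO-labelled library had 89 Pdgfrb UMIs in 17 of 894 nuclei, and 66 of them lay in 3 nuclei, so the class level of 10.3 CPM rested on very few nuclei.

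**Figure D1:**
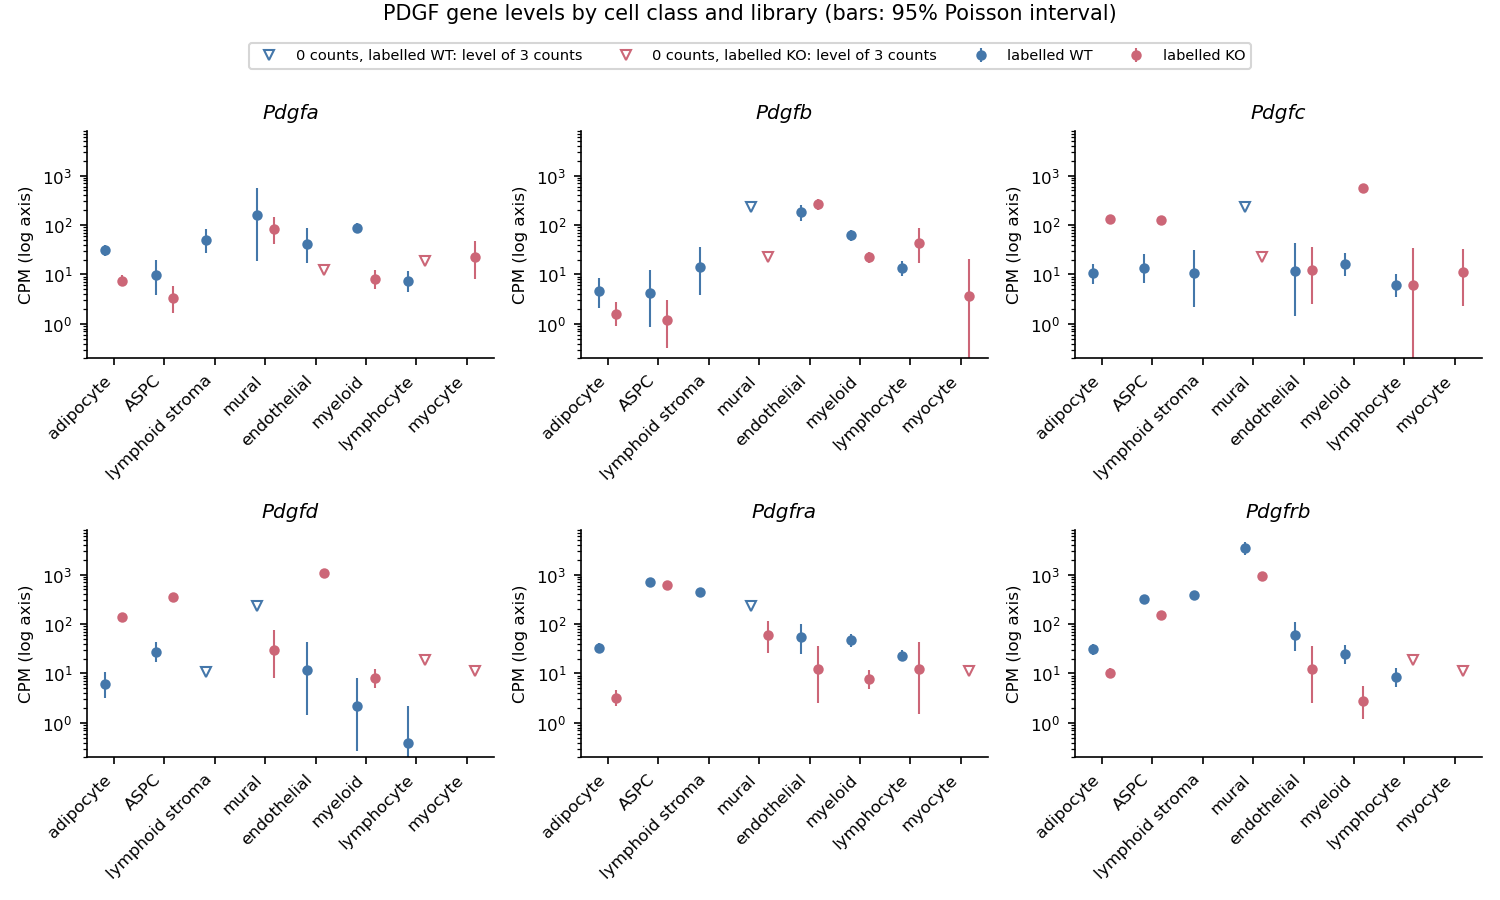
Levels of the 6 PDGF genes (CPM, log axis) by cell class in the libraries labelled WT and KO, where points are the class sums, bars the exact Poisson 95% intervals and marks at the limit show counts of 0. At the main settings, Pdgfra is highest in ASPC-like, Pdgfrb in mural-like and Pdgfb in endothelial-like nuclei in both libraries. Pdgfc and Pdgfd stand far higher in the KO-labelled library.

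Among the ligands, Pdgfb, the chain that endothelium is known to release toward mural cells, was highest in endothelial-like nuclei in both libraries at the main settings. The gene lies at chr15:79995865-80024614. The WT-labelled library had 30 Pdgfb UMIs over 94 endothelial-like nuclei, or 180 CPM (121 to 257), and the KO-labelled library had 65 over 122 nuclei, or 265 CPM (205 to 338). These intervals overlap. The level was 2.90 times that of myeloid-like nuclei in the WT-labelled library (1.80 to 4.60). In the KO-labelled library it was 6.21 times that of lymphocyte-like nuclei (2.85 to 16.1), where 6 of 7 UMIs lay in 3 nuclei. With at least 1000 genes required per nucleus, the endothelial-like level in the WT-labelled library was 30.2 CPM. This was below the 62.0 CPM (46.8 to 80.5) of myeloid-like nuclei at the main settings. At resolution 0.2 the endothelial-like level was 77.1 CPM, inside that interval. The lead of endothelial-like nuclei in this library was thus not shown for these other settings.

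Myeloid-like nuclei had Pdgfb at 62.0 CPM (46.8 to 80.5) in the WT-labelled library and 22.6 CPM (17.4 to 28.8) in the KO-labelled library. The first value was 4.67 times that of lymphocyte-like nuclei (2.99 to 7.37), while the second did not differ from them (0.529, interval 0.242 to 1.37). These reference nuclei were not alike, since 63 of the 76 labelled KO lay in a cluster led by genes that include Klra8 and Gzma. That cluster held all 7 Pdgfb UMIs of the class in the KO-labelled library (46.8 CPM) and 3 in the WT-labelled library (145 CPM). The largest lymphocyte-like clusters of the WT-labelled library had Pdgfb at 7.46 and 18.6 CPM. Mural-like nuclei, the cells with the most of its receptor, had 0 Pdgfb UMIs in both libraries, which allows up to 234 CPM in the WT-labelled library and 22.2 CPM in the KO-labelled library.

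Pdgfa, at chr5:138976014-139000792, encodes the chain that binds PDGFRα. It had few UMIs, 189 in the WT-labelled library and 116 in the KO-labelled library over the named classes. Mural-like nuclei had the highest level in both, from 2 UMIs (156 CPM, 18.9 to 564) in the WT-labelled library and 11 UMIs (81.3 CPM, 40.6 to 146) in the KO-labelled library, and in the former they did not differ from the next class. Myeloid-like nuclei of the WT-labelled library had 87.4 CPM (69.2 to 109), 11.8 times the lymphocyte-like level (7.07 to 20.6), against 8.11 CPM (5.14 to 12.2) in the KO-labelled library. Adipocyte-like nuclei had 30.7 CPM (23.5 to 39.4) in the WT-labelled library and 7.51 CPM (5.80 to 9.57) in the KO-labelled library. ASPC-like nuclei, which had the most of its receptor, were at the lymphocyte-like level in the WT-labelled library (9.65 against 7.42 CPM).

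Pdgfc, a CUB-domain ligand of PDGFRα, showed a clear order of classes in the KO-labelled library alone. The gene spans chr3:81036416-81214040. There, myeloid-like nuclei led with 1592 UMIs over 877 nuclei, or 562 CPM (534 to 590), followed by adipocyte-like nuclei at 133 CPM (125 to 141) and ASPC-like nuclei at 127 CPM (115 to 140). Myeloid-like nuclei exceeded adipocyte-like nuclei by 4.23 times (3.91 to 4.56), and the last 2 did not differ (ratio 1.05, interval 0.935 to 1.17). Lymphocyte-like nuclei had 1 UMI (6.098 CPM), mural-like nuclei had 0 (up to 22.2 CPM) and endothelial-like nuclei had 3 (12.2 CPM). The WT-labelled library had 67 Pdgfc UMIs in all named classes, from 16.6 CPM in myeloid-like nuclei (9.29 to 27.4) to 6.25 CPM in lymphocyte-like nuclei, and no class differed from its neighbour in the order.

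Pdgfd, the other CUB-domain ligand, which acts mainly through PDGFRβ, was highest in endothelial-like nuclei of the KO-labelled library. The gene spans chr9:6168363-6534284. They had 269 UMIs over 122 nuclei, or 1098 CPM (970.5 to 1237), 3.09 times the 355 CPM (335 to 376) of ASPC-like nuclei (2.70 to 3.53). ASPC-like nuclei in turn exceeded the 141 CPM of adipocyte-like nuclei (134 to 150) by 2.51 times (2.32 to 2.72). Myeloid-like nuclei, the leading class for Pdgfc, had 8.11 CPM of Pdgfd, and lymphocyte-like nuclei had 0 UMIs (up to 18.3 CPM). The WT-labelled library held 37 Pdgfd UMIs, 20 of them in ASPC-like nuclei (27.6 CPM, 16.8 to 42.6), 12 in adipocyte-like nuclei (6.04 CPM, 3.12 to 10.5) and 2 in endothelial-like nuclei (11.99 CPM, 1.45 to 43.3). Its lymphocyte-like nuclei had 1 Pdgfd UMI in 2094 nuclei, and the ASPC-like level was 70.6 times theirs (11.3 to 2926). The small gene Ddi1 overlaps Pdgfd, and it was counted on its own with 49 and 103 UMIs in the libraries labelled WT and KO.

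Of the 6 genes, 5 had at least 50 UMIs in each library, and Pdgfd was left out of this count. The class highest in both libraries is set beside the share of all genes led by that class in both. Pdgfra was the 1 gene led by ASPC-like nuclei, which were highest in both libraries for 4.63% of 10415 genes with as many UMIs. Mural-like nuclei led for 2 genes, Pdgfrb and Pdgfa, against 6.03% of all genes. Endothelial-like nuclei led for 1, Pdgfb, against 5.61%, and myeloid-like nuclei for 1, Pdgfc, against 7.42%. The Pdgfc and Pdgfa entries rest in the WT-labelled library on neighbours that did not differ. The Pdgfb entry holds for the main settings, and its WT-labelled level was lower with at least 1000 genes per nucleus.

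The share of a gene's UMIs by class follows both its level and how many nuclei of each class were captured. ASPC-like nuclei held 63.3% of the Pdgfra UMIs of the WT-labelled library (59.9 to 66.6) and 97.0% of those of the KO-labelled library (96.1 to 97.7). Lymphoid stroma-like nuclei held 15.1% in the former. Most Pdgfrb UMIs were also in ASPC-like nuclei, 45.9% and 68.9% in the libraries labelled WT and KO, whereas the mural-like nuclei with the highest level held 8.82% and 17.4%. ASPC-like nuclei therefore held more of the captured Pdgfrb transcripts than mural-like nuclei in both libraries.

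The ligand transcripts were spread over more classes. Endothelial-like and myeloid-like nuclei held 22.1% and 41.2% of the Pdgfb UMIs in the WT-labelled library and 41.9% and 41.3% in the KO-labelled library. For Pdgfa, myeloid-like nuclei held 41.8% and adipocyte-like nuclei 32.3% in the WT-labelled library, against 19.8% and 56.0% in the KO-labelled library. With each library clustered alone, the myeloid-like share in the WT-labelled library was 19.6%. In the KO-labelled library, Pdgfc UMIs came from myeloid-like (50.2%), adipocyte-like (36.3%) and ASPC-like nuclei (13.3%). Pdgfd UMIs there came from adipocyte-like (45.3%), ASPC-like (43.7%) and endothelial-like nuclei (9.96%), so the class with the highest Pdgfd level was the smallest of its 3 main sources.

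**Figure D2:**
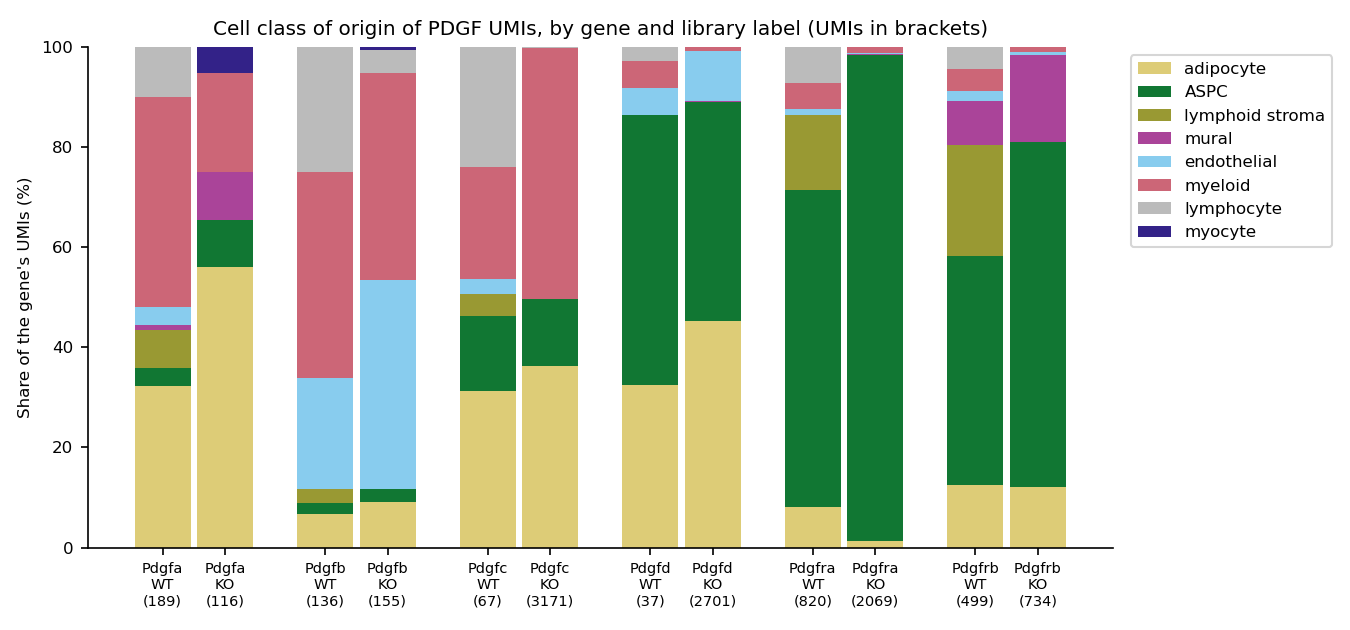
Share of each gene's UMIs (percent of UMIs over the named classes) by cell class, 1 stacked bar per gene and library. ASPC-like nuclei hold 63.3% and 97.0% of Pdgfra UMIs in the libraries labelled WT and KO, while the UMIs of each ligand are split among several classes.

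To compare nuclei at equal depth, each nucleus was thinned to 1000 UMIs, and shallower nuclei were left out. Pdgfra was then detected in 43.0% of 256 ASPC-like nuclei of the WT-labelled library (36.8 to 49.3) and in 40.2% of 764 of the KO-labelled library (36.7 to 43.8), where the unthinned shares had been 57.5% and 70.3%. The 38 and 23 ASPC-like nuclei under 1000 UMIs were not used. Lymphocyte-like nuclei had Pdgfra in 1.397% and 1.54%. The intervals of the ASPC-like shares overlap, as the unthinned ones do not.

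Pdgfrb was detected at this depth in 24.6% of ASPC-like nuclei in the WT-labelled library (19.5 to 30.4) and in 11.7% in the KO-labelled library (9.46 to 14.1), against unthinned shares of 43.9% and 32.9%. Mural-like nuclei had Pdgfrb in 8 of 8 nuclei in the WT-labelled library and in 55.0% of 40 in the KO-labelled library (38.5 to 70.7). Pdgfb was found in 19.0% of 63 and 16.7% of 102 endothelial-like nuclei, and the intervals overlap. Lymphocyte-like nuclei had Pdgfb in 0.838% of 1074 nuclei in the WT-labelled library and in 1 of 65 in the KO-labelled library.

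The CUB-domain ligands kept their difference between libraries at equal depth. Pdgfc was detected in 2.29% of 350 myeloid-like nuclei of the WT-labelled library (0.992 to 4.45) and in 31.0% of 822 of the KO-labelled library (27.9 to 34.3). Pdgfd was detected in 1 of 63 endothelial-like nuclei of the WT-labelled library and in 43.1% of 102 of the KO-labelled library (33.4 to 53.3). For Pdgfd in ASPC-like nuclei the shares were 3.91% and 26.2%. Pdgfa had the opposite order in myeloid-like nuclei, with 6.29% in the WT-labelled library and 0.730% in the KO-labelled library.

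**Figure D3:**
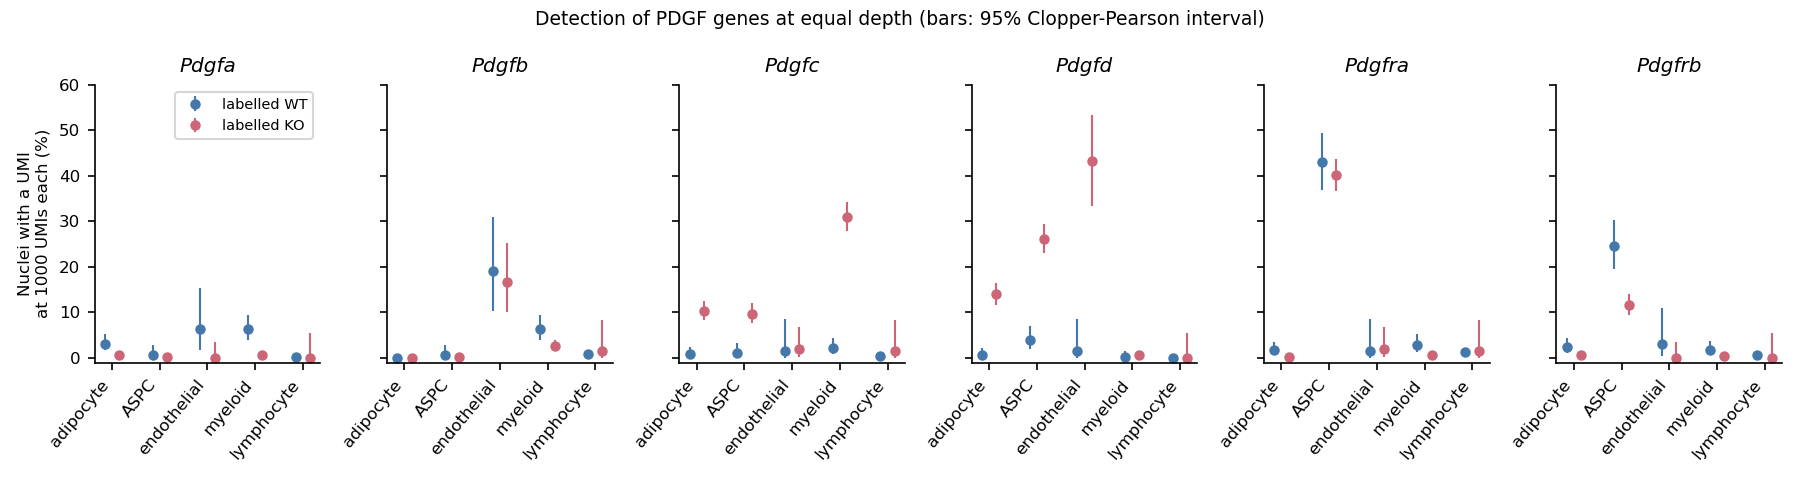
Share of nuclei with at least 1 UMI of a gene after thinning each nucleus to 1000 UMIs (percent, with exact 95% intervals), by class and library. Pdgfra in ASPC-like nuclei has overlapping intervals (43.0% and 40.2%), whereas Pdgfc in myeloid-like nuclei is at 2.29% and 31.0% and Pdgfd in endothelial-like nuclei at 1.59% and 43.1%.

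The comparison of the KO-labelled library with the WT-labelled library used ratios of CPM within a class for genes with at least 50 UMIs over both. Such ratios were available for 5 members in adipocyte-like nuclei, 4 in ASPC-like, 4 in myeloid-like and 2 in endothelial-like nuclei. Wherever Pdgfc and Pdgfd had a ratio, they passed this minimum only through the KO-labelled library, where they are high. Pdgfra in adipocyte-like and Pdgfa in myeloid-like nuclei passed it only through the WT-labelled library, where they are high. Counts of members past 2-fold are therefore no support for these entries. Of the 4 members in ASPC-like nuclei, 2 had a ratio of at least 2, Pdgfc at 9.21 (4.96 to 19.4) and Pdgfd at 12.9 (8.31 to 21.2), against 25.3% of 9249 genes. The 1 member at or under 0.5 was Pdgfrb at 0.482 (0.412 to 0.566), against 8.57% of genes. Pdgfra was at 0.844 (0.766 to 0.931).

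In adipocyte-like nuclei, 2 of 5 members had a ratio of at least 2, Pdgfc at 12.6 (8.19 to 20.4) and Pdgfd at 23.4 (13.4 to 45.5), against 25.6% of 11390 genes. The other 3 were at or under 0.5, against 17.7% of genes, namely Pdgfa at 0.245 (0.170 to 0.353), Pdgfra at 0.0974 (0.0603 to 0.154) and Pdgfrb at 0.330 (0.236 to 0.464). Pdgfrb in the WT-labelled library, at 31.2 CPM, was 3.63 times the lymphocyte-like level (2.20 to 6.20), while Pdgfra did not differ from it in either library. Several of these values moved with the processing. With at least 1000 genes per nucleus the log2 ratio of Pdgfrb was -0.71 in place of -1.60 and that of Pdgfd 3.52 in place of 4.55, and with each library clustered alone they were -0.92 and 3.24, so Pdgfrb was then no longer at or under a ratio of 0.5. With doublets left in, the log2 ratio of Pdgfra was -1.91 in place of -3.36.

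In myeloid-like nuclei, 1 of 4 members had a ratio of at least 2, Pdgfc at 33.8 (20.5 to 60.6), against 24.6% of 8993 genes. The other 3 were at or under 0.5, against 12.5% of genes. Pdgfa was at 0.0928 (0.0556 to 0.149), Pdgfb at 0.364 (0.251 to 0.531) and Pdgfra at 0.163 (0.0929 to 0.279), whose log2 ratio was -1.83 in place of -2.62 with each library clustered alone. Different clusters made up the myeloid-like class in the 2 libraries, as they did the adipocyte-like and ASPC-like classes.

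In endothelial-like nuclei, 1 cluster of both libraries that split by library when clustered again, 1 of 2 members had a ratio of at least 2, against 32.1% of 1734 genes, and 0 of 2 were at or under 0.5, against 16.3%. Pdgfd was at 91.5 (25.1 to 760), from 269 UMIs against 2, and Pdgfb at 1.47 (0.943 to 2.35), which did not differ from 1. Pdgfrb in mural-like nuclei, also 1 cluster of both libraries, was at 0.276 (0.194 to 0.398) from 128 UMIs against 44. Trimmed-mean (TMM) scaling of the class sums would add 0.29 to the log2 ratios in adipocyte-like nuclei, 0.10 in ASPC-like, 0.12 in myeloid-like, 0.18 in endothelial-like and 1.00 in mural-like nuclei. Of the genes past 2-fold in either direction, the part with the higher level in the KO-labelled library was 59.2% in adipocyte-like, 74.7% in ASPC-like and 66.3% in myeloid-like nuclei, and 44.9%, 55.5% and 49.1% on totals without mitochondrial genes and Malat1. TMM scaling gave 76.2% in adipocyte-like nuclei, and centring on intron length gave 61.3% in ASPC-like nuclei. No reported member ratio of the 4 main classes changed direction under these scalings.

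Across all genes, these ratios moved with the total length of a gene's introns. Genes with over 100000 bases of intron had a median log2 ratio of 1.59 in ASPC-like, 1.45 in adipocyte-like, 1.52 in myeloid-like and 1.44 in endothelial-like nuclei. Genes with at most 3000 bases of intron had medians of -0.62, -0.90, -0.70 and -0.97 in the same order. Pdgfc and Pdgfd are the long genes of the family, with 172536 and 207113 bases of intron, against 39177 for Pdgfra, 34434 for Pdgfrb, 18238 for Pdgfa and 15991 for Pdgfb. Both ligands with a ratio above 2 were thus in the length group of highest ratios, where 62.7% to 67.2% of genes reached a ratio of 2 in these 4 classes.

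Set against genes of similar intron length, Pdgfc in myeloid-like nuclei lay above 96.6% of them, 3.56 higher on the log2 scale than their median (2.84 to 4.41 by counting error). Pdgfd in endothelial-like nuclei lay above 98.3%, 5.08 higher (3.21 to 8.13). In ASPC-like nuclei the excess over the median was 1.61 for Pdgfc and 2.09 for Pdgfd, above 82.7% and 88.5% of such genes, and in adipocyte-like nuclei it was 2.20 and 3.10, above 88.6% and 93.6%. Pdgfra and Pdgfrb in ASPC-like nuclei lay 0.71 and 1.52 below the median of their length group, where 19.2% and 2.37% of genes were lower. The part of intron length in the ratios of Pdgfc and Pdgfd was not tested, and the genotype, the library and the preparation cannot be told apart.

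**Figure D4:**
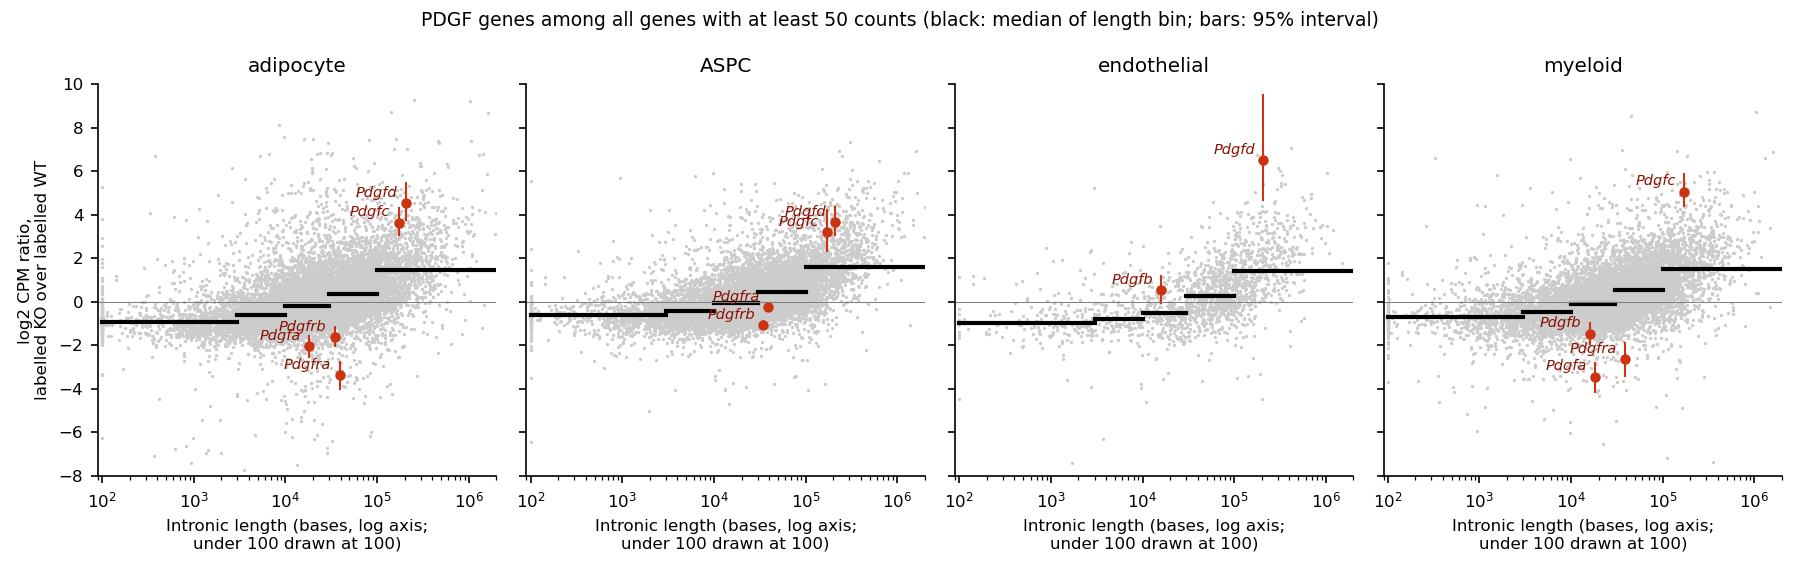
Log2 ratio of CPM (labelled KO over labelled WT) of the members against the total intron length of their gene (bases, log axis) in 4 classes, over all genes as points, with the median of each length group. Pdgfc and Pdgfd lie above the median of genes with over 100000 bases of intron, and Pdgfra and Pdgfrb in ASPC-like nuclei lie below the median of their group.

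ASPC-like nuclei were clustered again without the 6 genes, and in each library the subcluster highest for interstitial progenitor genes (Pi16, Dpp4, Cd55, Sema3c, Wnt2, Anxa3, Fbn1) was set beside that highest for committed preadipocyte genes (such as Icam1, Pparg, Fabp4 and Lpl). Interstitial progenitors are known as the less committed stromal cells of fat, and preadipocytes as the cells closer to adipocytes. These subclusters held 121 and 151 nuclei in the WT-labelled library and 391 and 264 nuclei in the KO-labelled library. The interstitial list summed to 10519 against 1024 CPM in the WT-labelled library and to 8557 against 762 CPM in the KO-labelled library. The committed list separated the subclusters less, at 3248 against 8773 CPM in the WT-labelled library and 3717 against 6446 CPM in the KO-labelled library. It also summed to 4535 CPM in a lymphocyte-like cluster of the WT-labelled library and to 4881 CPM in a lymphocyte-like cluster of the KO-labelled library.

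Both receptors were lower and Pdgfd was higher in the interstitial subcluster in both libraries, and Pdgfc was higher there in the KO-labelled library. Pdgfra was at 475 CPM in the interstitial and 816 CPM in the committed subcluster of the WT-labelled library (ratio 0.582, interval 0.454 to 0.739) and at 382 and 842 CPM in the KO-labelled library (0.454, interval 0.407 to 0.506). Pdgfrb was at 136 and 395 CPM in the WT-labelled library (0.344, interval 0.214 to 0.528) and at 42.8 and 275 CPM in the KO-labelled library (0.156, interval 0.115 to 0.208). Pdgfrb had the smaller ratio in each library.

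Pdgfd was higher in the interstitial subcluster by nearly the same ratio in both libraries. The levels were 62.1 and 13.2 CPM in the WT-labelled library, from 11 and 6 UMIs (ratio 4.72, interval 1.60 to 15.6), and 619 and 132 CPM in the KO-labelled library (4.71, interval 3.96 to 5.63). Pdgfc was at 280.4 and 11.96 CPM in the KO-labelled library (23.4, interval 13.8 to 43.3). From 5 and 3 UMIs in the WT-labelled library, its ratio was 4.29 (0.835 to 27.7), which did not differ from 1.

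Of 6 members, 4 had at least 50 UMIs over these subclusters. Pdgfc and Pdgfd, 2 of these 4, had a ratio of at least 2 in both libraries, against 4.81% of 8295 genes. Both passed the minimum only through the KO-labelled library, where they are high, so this count is no support for them. In the WT-labelled library the ratio of Pdgfc rested on 5 and 3 UMIs and did not differ from 1, and that of Pdgfd on 11 and 6 UMIs. Pdgfrb, 1 of the 4, had a ratio of at most 0.5 in both, against 4.05%. The remaining large ASPC-like subcluster, highest for F3 and Gdf10 stromal genes, had Pdgfrb at 145 CPM in the KO-labelled library (120 to 174), between the other two. In the WT-labelled library it held 22 nuclei with 25 Pdgfrb UMIs, or 270 CPM (175 to 399), an interval that overlaps that of the committed subcluster. Its Pdgfd level in the KO-labelled library was 264 CPM (229.5 to 302), also between the other two.

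**Figure D5:**
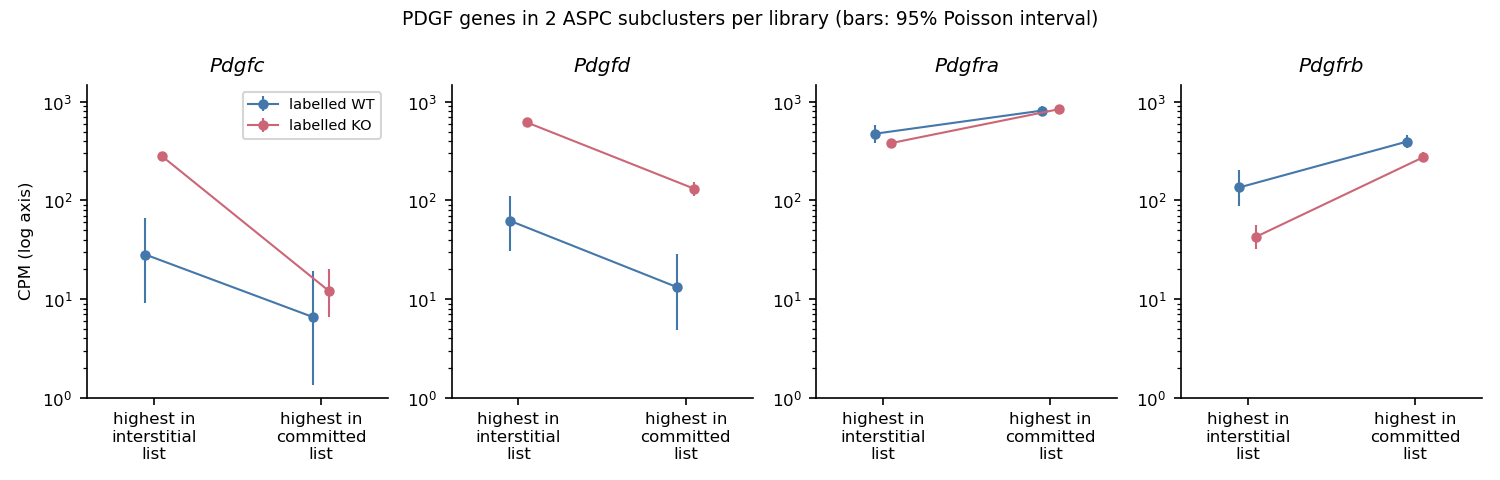
Levels of Pdgfra, Pdgfrb, Pdgfc and Pdgfd (CPM, log axis, with exact Poisson 95% intervals) in the ASPC-like subclusters highest for interstitial progenitor and for committed preadipocyte genes, per library. In both libraries Pdgfra and Pdgfrb are higher in the committed and Pdgfd in the interstitial subcluster.

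Within myeloid-like nuclei of the KO-labelled library, Pdgfc was highest in a subcluster with genes of resident macrophages. The subcluster highest for resident macrophage genes (Mrc1, F13a1, Cd163, Lyve1, Timd4, Folr2) had 1211 CPM (1142 to 1283), with a UMI in 81.5% of its 259 nuclei. The subcluster highest for lipid-associated macrophage genes (Trem2, Cd9, Lpl, Spp1, Gpnmb, Itgax), the macrophages known from obese fat, had 112 CPM (79.9 to 154) over 82 nuclei, so the former was 10.8 times higher (7.84 to 15.2). Another subcluster, led by Kctd16 and Itga9, was also high for the resident list and had 521 CPM (467 to 579). A subcluster led by Aldh1a2 and Fn1 had 45.3 CPM (28.7 to 67.9), and 1 led by the type 1 dendritic cell genes Clec9a and Xcr1 had 0 Pdgfc UMIs over 24 nuclei.

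The other ligands had the opposite order between these subclusters. Pdgfb was at 6.24 CPM in the resident and 54.7 CPM in the lipid-associated subcluster (ratio 0.114, interval 0.0373 to 0.297). Pdgfa was at 4.16 and 25.9 CPM (0.160, interval 0.0361 to 0.575), from 4 and 9 UMIs. In the WT-labelled library the same subcluster was highest for both macrophage lists, so this contrast could not be made there, and its Pdgfc level was 26.3 CPM (12.1 to 50.01) over 216 nuclei. Pdgfa in that library was highest in a subcluster led by genes that include Marco and Pla2g2d, at 286 CPM (199 to 397) over 80 nuclei, against 82.0 CPM (54.5 to 118) in the subcluster of both macrophage lists.

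Endothelial-like nuclei of the WT-labelled library split into a subcluster highest for capillary genes, with Pdgfb at 317 CPM (199 to 479.8), and a subcluster led by genes that include Lyve1, which marks lymphatic vessels, with 82.3 CPM (33.1 to 169.5). They held 47 and 46 nuclei, and 18 and 2 nuclei of the KO-labelled library. The capillary list, which includes Cd36 and Fabp4, summed to 31348 and 3056 CPM in them, and to 12406 CPM in an adipocyte-like subcluster of the WT-labelled library. The former was also higher for arterial genes (547 against 141 CPM) and pericyte genes (533 against 47.0 CPM), and lower for venous genes (591 against 1234 CPM). In the KO-labelled library, 102 of 122 endothelial-like nuclei formed 1 subcluster, with Pdgfb at 279 CPM (214 to 357) and Pdgfd at 1165 CPM (1027 to 1315). Its Pdgfd UMIs were found in 52.0% of nuclei, and it held 1 nucleus of the WT-labelled library, so the ratios of the whole class compare different subclusters. The subcluster highest for capillary genes held nuclei of both libraries. In it, Pdgfd was at 28.8 CPM in the WT-labelled library (2 UMIs, 3.49 to 104) and at 576 CPM in the KO-labelled library (10 UMIs, 276 to 1060.1). Pdgfb there was at 115 CPM in the KO-labelled library (2 UMIs, 14.0 to 416). The 58 UMIs of the 3 nuclei richest in Pdgfd were a minor part of the 269 UMIs of the class.

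In adipocyte-like nuclei of the KO-labelled library, both CUB-domain ligands were found in every subcluster but in a different order. Pdgfd was at 66.7 CPM (59.7 to 74.2) in the subcluster of 362 nuclei with the deepest counts. It was at 210 CPM (185 to 238) in the subcluster of 265 nuclei led by genes that include Cidea, Ppara and Pdk4, known from oxidative adipocytes, and at 266 CPM (246 to 288) in the remaining subcluster of 258 nuclei. Pdgfc was at 147 CPM (137 to 158), 87.0 CPM (71.1 to 105) and 121 CPM (107 to 136) in the same order, so the Cidea-led subcluster had the least Pdgfc and the deepest subcluster the least Pdgfd.

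The adipocyte-like nuclei of the WT-labelled library formed 2 subclusters, which did not differ in the CUB-domain ligands. Pdgfd was at 4.84 CPM (1.57 to 11.3) and 7.34 CPM (2.95 to 15.1) in them. Pdgfra was at 3.87 CPM (1.05 to 9.91) in the first and 65.0 CPM (49.8 to 83.3) in the second, which was led by genes that include the leukocyte gene Ptprc. Of the 66 Pdgfra UMIs of this class, 62 thus lay in the subcluster with leukocyte genes, and 53 of its 62 Pdgfrb UMIs did too.

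Receptor co-detection was examined in nuclei thinned to 1000 UMIs. In ASPC-like nuclei of the WT-labelled library, Pdgfrb was present in 33 of the 110 nuclei with Pdgfra (interval of the share 21.6% to 39.5%) and in 30 of the 146 without it (20.5%, interval 14.3 to 28.02). The shares in the KO-labelled library were 13.4% of 307 (9.76 to 17.7) and 10.5% of 457 (7.85 to 13.7). Lymphoid stroma-like nuclei had Pdgfrb in 43.2% of 44 nuclei with Pdgfra (28.3 to 59.0) and in 26.8% of 82 without it (17.6 to 37.8). The order was the same in the 3 cases, but within each the intervals overlap, and at 500 UMIs per nucleus the lymphoid stroma-like shares were 4 of 25 and 18.4% of 125, in the opposite order. ASPC-like nuclei kept the order at 500 UMIs, with 17.7% of 79 against 11.2% of 215 in the WT-labelled library and 8.47% of 189 against 5.18% of 598 in the KO-labelled library, again with overlapping intervals. A link between the receptors in single nuclei was therefore not detectable at this depth beyond their shared class.

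Ligand and receptor were seen together in some ASPC-like nuclei, Pdgfra more often than Pdgfrb. Among nuclei of the KO-labelled library with Pdgfc, 25 of 74 also had Pdgfra (33.8%, interval 23.2 to 45.7), against 40.9% of those without it (37.2 to 44.6). For Pdgfd these shares were 35.5% of 200 (28.9 to 42.6) and 41.8% of 564 (37.7 to 46.0). Pdgfrb was present in fewer. Among nuclei of the KO-labelled library with Pdgfc, 4.05% of 74 also had Pdgfrb (0.844 to 11.4), against 12.5% of the 690 without Pdgfc (10.1 to 15.2). For Pdgfd the shares were 16 of 200 (interval of the share 4.64% to 12.7%) and 12.9% of 564 (10.3 to 16.0). Pdgfd itself was present in 33.8% of nuclei with Pdgfc (23.2 to 45.7) and in 25.4% of those without it (22.2 to 28.8). None of these 5 pairs of intervals was separate. Pdgfa and Pdgfb were compared in myeloid-like nuclei of the WT-labelled library, where 5 of 22 nuclei with Pdgfa had Pdgfb (22.7%, interval 7.82 to 45.4), against 5.18% of the 328 without it (3.05 to 8.17), and these intervals overlap narrowly.

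Among 74 further genes of the pathway, 63 had at least 50 UMIs in ASPC-like nuclei, the main holder of receptor transcripts. Of these, 14 had a ratio (labelled KO over labelled WT) of at least 2 and 5 of at most 0.5, against 25.3% and 8.57% of all genes in this class, and their median log2 ratio was 0.35, against 0.15. Of 4 tested early response genes, which PDGF is known to induce, 1 was at or under 0.5 and 0 were after centring on intron length. Junb was at 0.499 (0.365 to 0.687), Ier2 at 0.579 (0.404 to 0.842) and Egr1 at 0.574 (0.401 to 0.835), and the median log2 ratio of the 4 was -0.80. Genes with as few bases of intron had a median of -0.62.

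Of 11 tested negative regulators 4 had a ratio of 2 or more, as did 4 of 18 adaptors and proximal kinases and 4 of 16 downstream kinases, against the same 25.3%. Ptprj, a receptor phosphatase, was at 7.85 (5.50 to 11.6) and Cblb, a ubiquitin ligase, at 3.85 (3.12 to 4.81), while Dusp1, a phosphatase of MAP kinases, was at 0.728 (0.590 to 0.903). Fyn, a Src-family kinase, was at 2.43 (2.03 to 2.94). Ptprj, Cblb and Fyn have over 100000 bases of intron, for which the median log2 ratio was 1.59, and Ptprj and Cblb lay above it at 2.97 and 1.95, while Fyn was below it at 1.28. Pik3r1, the regulatory subunit of PI3 kinase, was at 1.94 (1.63 to 2.34).

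Of 8 tested genes for proteins that bind or process the ligands, 2 had a ratio of at least 2 and 1 of at most 0.5. Of 5 co-receptors 0 and 1 did. The shares of all genes in ASPC-like nuclei were 25.3% and 8.57%. Sparc, a matrix protein that binds PDGF-B, was among the abundant transcripts of ASPC-like nuclei, at 3131 and 3271 CPM in the libraries labelled WT and KO (ratio 1.04, interval 0.998 to 1.09), and Pcsk5, a proprotein convertase, was at 2.26 (1.82 to 2.83). Lrp1, which acts as a co-receptor of PDGFRβ, was at 758 and 613 CPM (0.809, interval 0.736 to 0.891), and Nrp1, a co-receptor, was at 158 and 263 CPM (1.66, interval 1.36 to 2.03). Nrp2, the paralogue of Nrp1, was at 37.2 and 14.7 CPM (0.396, interval 0.243 to 0.659). In adipocyte-like nuclei, 18 of 64 tested pathway genes reached 2-fold higher levels and 10 lay at 0.5 or less, against 25.6% and 17.7% of all genes. The counts were 17 and 6 of 56 in myeloid-like nuclei (24.6% and 12.5% of all genes) and 10 and 1 of 23 in endothelial-like nuclei (32.1% and 16.3%). Only 3 pathway genes passed the count minimum in mural-like nuclei, Sparc, Nrp1 and Pik3r1.

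The genes whose levels ran most like each member across classes were sought among 8300 genes, by the smaller of the Pearson r in the 2 libraries over 6 classes in the WT-labelled library and 7 in the KO-labelled library. The classes of a library share its depth, so these are descriptions. Serping1, Antxr1 and Pcolce were most like Pdgfra, with a smaller r of 0.96, 0.96 and 0.95. Errfi1, Pla2r1 and P3h3 were most like Pdgfrb (0.94, 0.93 and 0.93). Between the receptors r was 0.96 in the WT-labelled library, in which mural-like nuclei had too few UMIs to enter, and 0.73 in the KO-labelled library.

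Mtmr2, Gpr160 and Clec1a were most like Pdgfb (0.93, 0.92 and 0.92). The closest genes were Tpcn1, Sirt6 and Phactr2 for Pdgfc (0.87, 0.86 and 0.85) and Fbln5, Akap12 and Lims2 for Pdgfd (0.90, 0.88 and 0.88). For Pdgfa, Atp6v1h and Psmc6 were among the 3 closest (0.70 and 0.70).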

How the data were processed

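Nuclei of iWAT were profiled with 10x Genomics 3' v3.1 chemistry. The authors deposited raw UMI counts for each gene and barcode. Per the file headers these came from Cell Ranger 6.1.1. The submitters' processing notes name mm10 and Seurat 4. Whether intron reads were counted, and any removal of free RNA, are not given in the sources used here. Totals were 9376351 UMIs (labelled WT) and 19655049 UMIs (labelled KO).

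Barcodes with at least 500 genes and at most 5% mitochondrial UMIs were kept. Scrublet in scanpy 1.11.5 removed 92 of 2944 nuclei labelled KO. It marked 0 of 3649 labelled WT, so 146 nuclei there (the top 4% of scores) were taken out instead. Clusters came from the merged counts without the 6 PDGF genes, by Seurat 5.3.0 under R 4.3.3 (scaling to 10000 per nucleus, 2000 variable genes, 20 components, 20 neighbours, resolution 0.5, no batch correction), and each class was then clustered again in the same way. A cluster was named "-like" where at least 3 markers had a UMI in 5% of nuclei and 2 times the mean CPM of the other clusters, the runner-up list trailed by 3 markers, and the top 10 genes did not favour a different list. The myeloid list pools macrophage and dendritic markers, and the lymphocyte list pools B and T/NK markers.

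Counts were summed per class and library and given as CPM of the class. Sums have exact Poisson intervals, shares Clopper-Pearson intervals and ratios exact conditional binomial intervals (95%, scipy 1.17.1), which cover counting error only. A count of 0 allows up to 3 counts. No test was made, since each genotype had 1 library. TMM factors came from edgeR 4.0.16. Intron lengths came from an annotation of the older NCBIM37 build and were used as lengths only, and coordinates are those of GRCm38.p6. The interval functions were checked on simulated counts.

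The members, marker lists, subset lists and pathway lists were chosen with earlier results of these data known. Named are the 6 members, up to 3 genes per pathway list by CPM, and the genes of most similar class pattern by Pearson r of log2(CPM + 5), among genes with at least 100 counts per library and classes with at least 20000 UMIs, of which the first 3 of 5 are given. Some genes that this rule names are not reported here. Promoter rows were found for 4 members, and the 2 printed were cut to end before the annotated gene. Alternatives changed the gene minimum, doublets, resolution, components, separate clustering, the marker lead, the scaling, the thinning depth and the count minimum.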

Additional observations from a re-analysis of the deposited data

Results flagged for a closer look

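The log2 ratio of Pdgfb (labelled KO over labelled WT) was 0.56 in endothelial-like and -1.46 in myeloid-like nuclei, with opposite signs in its 2 main source classes. The difference was not tested, and the endothelial-like value did not differ from 0 by counting error, so it has no direction of its own. The subcluster highest for capillary genes had 317 CPM in its nuclei labelled WT, and the main subcluster labelled KO had 279 CPM.

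Lymphoid stroma-like nuclei, present in the library labelled WT alone, had Pdgfra at 443 CPM and Pdgfrb at 393 CPM and have no counterpart for a comparison.

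Barcodes that failed the filters, which no comparison used, still held Pdgfra at 116 CPM in the library labelled WT and at 74.6 CPM in the library labelled KO. The first value was above the recorded level of each kept class of that library except ASPC-like and lymphoid stroma-like nuclei. Its mural-like nuclei, with 0 Pdgfra UMIs, allow up to 234 CPM, so they cannot be placed below it. No ratio to the kept classes was formed.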

How the results depend on the processing

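Of 358 values from other settings over 57 results, 24 values of the chief results and 15 of the others moved outside their set range, and 1 reversed. Only log2 ratios and differences of detection shares whose interval left out no difference could be scored as reversed. Levels and shares could not, and a changed order of classes was not scored. With 30 principal components, Pdgfrb in mural-like nuclei was at 667 CPM in the library labelled WT and its log2 ratio (labelled KO over labelled WT) was 0.50 in place of -1.86, whereas TMM scaling gave -0.86 and centring on genes of similar intron length -2.60. Among the other log2 ratios, centring on intron length gave 2.09 for Pdgfd and -0.71 for Pdgfra in ASPC-like and 3.56 for Pdgfc in myeloid-like nuclei, and totals without mitochondrial genes and Malat1 gave -0.51 for Pdgfra. Pdgfb in endothelial-like nuclei had a log2 ratio of 3.26 with at least 1000 genes per nucleus and of 1.78 at resolution 0.2, from WT-labelled levels of 30.2 and 77.1 CPM. The minimum of 1000 genes also gave 598 CPM of Pdgfc in myeloid-like nuclei labelled KO and source shares of 8.57% (Pdgfb, endothelial-like, labelled WT), 7.19% (Pdgfd, endothelial-like, labelled KO), 68.8% (Pdgfra, ASPC-like, labelled WT) and 6.04% (Pdgfrb, mural-like, labelled WT). With doublets left in, the shares labelled KO were 47.5% for Pdgfc in myeloid-like and 94.5% for Pdgfra in ASPC-like nuclei. Clustering each library alone gave 594 CPM of Pdgfc in myeloid-like nuclei labelled KO, and 61.3 CPM and a share of 19.6% for Pdgfa in myeloid-like nuclei labelled WT. At 500 UMIs per nucleus, the difference of detection shares was 17.3 percentage points for Pdgfc in myeloid-like, 26.6 for Pdgfd in endothelial-like and -6.95 for Pdgfrb in ASPC-like nuclei. The causes of these moves were not tested. Of the 17 log2 ratios, 148 values under other settings stayed within counting error of the main value. Over the 4 main classes, 24.8% to 27.5% of genes reached a ratio of 2 with a minimum of 10 counts and 31.0% to 37.0% with no minimum above 1, and 13.5% to 22.3% and 18.0% to 29.6% lay at 0.5 or less. Separate clustering left no mural-like class in the library labelled WT, and the minimum of 1000 genes left 0 Pdgfd UMIs in its endothelial-like nuclei, so these ratios could not be computed. No paired analysis was possible because each genotype had 1 library, and no library could be left out. The 94 endothelial-like and 9 mural-like nuclei labelled WT limit the precision of the values of those classes.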
